A study of Mus musculus with 10 samples.

Results

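Mitochondrial ribosomal proteins are the nuclear-encoded protein subunits of the ribosome that works inside mitochondria. They were followed here as 77 genes, of 13171 genes tested, in mouse bone marrow derived macrophages (BMDM, macrophages grown from marrow progenitors). The members are the genes whose Ensembl identifier matched a mouse symbol starting with Mrpl or Mrps and a number, with a deposited value of 10 or more in at least 2 of 10 libraries; 5 pseudogenes were left out. All 77 matching genes passed that filter, and the lowest deposited value of any member in any library was 130. Beyond that filter the rule used their symbols and not their levels, although the members were chosen with earlier results of these data known.

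All cells were BMDM of the strain C57BL/6. The 5 groups of 2 libraries each were Tlr4 -/- cells pre-treated with Poly(I:C), Tlr4 -/- cells in control medium, untreated Tlr4 -/- cells, WT cells in control medium and untreated WT cells. They are called KO Poly(I:C), KO control, KO untreated, WT control and WT untreated below. Poly(I:C) is a synthetic double-stranded RNA that immune cells sense as a sign of virus, and the control medium held 5% fetal bovine serum (FBS) and 2% bovine serum albumin (BSA) for 6 h. The labels give no duration or medium for the Poly(I:C) pre-treatment, and no age of the mice. They also do not state whether the libraries of one group were separate mice or cultures, and the p-values cover the spread between libraries, which may be technical. A Poly(I:C) group of WT cells was not analysed here, so the response to Poly(I:C) was measured in KO cells alone.

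The mitochondrial ribosome, or mitoribosome, translates the few messenger RNAs encoded by mitochondrial DNA, all of which specify subunits of the respiratory chain and ATP synthase. Its RNA comes from the mitochondrial genome, whereas every protein subunit is encoded in the nucleus, translated in the cytosol and imported. Some subunits descend from bacterial ribosomal proteins and others were added in mitochondria. Activated macrophages are known to reshape mitochondrial metabolism. By subunit, the 77 members comprised 50 of the large subunit (29 with a bacterial homologue and 21 specific to mitochondria) and 26 of the small subunit (16 and 10), from structures of the mammalian mitoribosome. The remaining member, Mrps36, carries a mitoribosomal name but is now assigned to the oxoglutarate dehydrogenase complex of the citric acid cycle.

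RefSeq promoter windows (GRCm38.p6, 250 bases before to 50 after the annotated start, 300 in all) were found for 68 of the 77 members. Short motifs of transcription factors that are known to act on nuclear genes for mitochondrial proteins were searched on both strands of these windows. The NRF1 motif GCGCATGC was present in 7 of 68 members (10.3%), against 5.98% of 9917 tested genes with a window. The ETS motif CCGGAAG, bound by GABPA among others, was present in 25 members (36.8%), against 20.5% of the tested genes. The first YY1 motif, AAGATGG, was present in 13 members (19.1%, against 8.6%) and the second, GCCATNTT, in 21 members (30.9%, against 10.2%). These 2 motifs can overlap. The E-box CACGTG was present in 5 members (7.35%, against 11.8%) and the cyclic AMP response element TGACGTCA in 2 members (2.94%, against 3.56%). A match is a description of the letters in a window, not of a bound site.

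The windows of 4 members are shown because these genes had some of the largest differences described below. Mrpl39 and Mrpl52 were among the members that rose, and Mrpl49 and Mrpl34 among those that fell. Capitals mark every match to the motifs above. Mrpl39 (chr16:84735195-84735494, minus strand) holds a pair of overlapping NRF1 matches, which read the same 10 capital letters on both strands. Its window follows the RefSeq start and lies wholly inside the gene as drawn in the GENCODE M21 annotation of GRCm38 (chr16:84717576-84735742). Mrpl52 (chr14:54426659-54426958, plus strand) holds an AAGATGG match and a pair of ETS matches on the reverse strand. Mrpl49 (chr19:6057706-6058005, minus strand) holds AAGATGG matches, the later of which overlaps GCCATNTT on the reverse strand, and a cyclic AMP response element. Mrpl34 (chr8:71464676-71464975, plus strand) holds an ETS match.
Mrpl39: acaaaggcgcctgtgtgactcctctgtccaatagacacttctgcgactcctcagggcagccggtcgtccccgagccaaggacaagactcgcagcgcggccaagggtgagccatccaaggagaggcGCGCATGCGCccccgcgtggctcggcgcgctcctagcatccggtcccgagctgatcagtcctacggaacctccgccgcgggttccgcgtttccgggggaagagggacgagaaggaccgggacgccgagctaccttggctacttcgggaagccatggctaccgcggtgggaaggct
Mrpl52: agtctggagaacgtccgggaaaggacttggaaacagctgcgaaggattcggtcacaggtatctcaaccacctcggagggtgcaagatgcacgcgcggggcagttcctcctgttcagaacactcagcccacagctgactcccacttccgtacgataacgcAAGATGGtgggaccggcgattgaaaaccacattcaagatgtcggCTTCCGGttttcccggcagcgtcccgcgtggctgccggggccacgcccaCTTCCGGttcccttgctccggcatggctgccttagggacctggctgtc
Mrpl49: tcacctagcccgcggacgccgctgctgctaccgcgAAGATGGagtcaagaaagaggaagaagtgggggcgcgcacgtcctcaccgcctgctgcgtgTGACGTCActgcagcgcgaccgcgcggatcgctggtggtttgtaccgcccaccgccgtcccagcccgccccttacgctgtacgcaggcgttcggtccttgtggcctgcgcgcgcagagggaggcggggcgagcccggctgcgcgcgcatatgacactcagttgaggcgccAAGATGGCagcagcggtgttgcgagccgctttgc
Mrpl34: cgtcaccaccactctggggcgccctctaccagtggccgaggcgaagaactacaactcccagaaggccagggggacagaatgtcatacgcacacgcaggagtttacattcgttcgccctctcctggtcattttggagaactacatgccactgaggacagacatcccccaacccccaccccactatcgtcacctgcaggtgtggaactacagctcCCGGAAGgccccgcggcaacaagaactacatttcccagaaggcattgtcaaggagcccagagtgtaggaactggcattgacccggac

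Before any comparison, the libraries were checked. The deposited totals were 25.2 to 51.7 M scaled units per library, and because the values had been scaled and rounded before deposit the read depth behind them is unknown. Levels are the deposited values on the CPM scale after trimmed-mean (TMM) scaling of library totals, and differences as log2(CPM + 0.1). Tlr4, the deleted gene, was at 47.9 and 64.7 CPM in KO Poly(I:C), 30.8 and 34.6 in KO control, 44.3 and 44.9 in KO untreated, 32.2 and 38.6 in WT control and 60.2 and 68.9 in WT untreated. Its transcript was therefore present in every library labelled Tlr4 -/-, and a whole-gene value does not check a deletion of part of the gene. Among 7 macrophage markers the summed level was 23300 to 27550 CPM in all libraries. The 3 markers each of T and NK cells and of mast cells and basophils were at 0 in every library, and the 3 markers each of B cells and of dendritic cells summed to under 1 CPM in each. The summed level of 3 fibroblast and stroma markers was 7.37 and 6.09 CPM in KO Poly(I:C), 2.14 to 3.17 in the other KO libraries, 10.96 and 13.15 in WT control and 2.23 and 3.30 in WT untreated. The summed level of 7 neutrophil markers was 92.2 and 97.3 CPM in KO Poly(I:C), 13.7 to 24.5 in the other KO libraries, 77.6 and 102 in WT control and 16.4 and 30.4 in WT untreated. Erythroid and platelet markers (3 genes) summed to 385 and 352 CPM in KO Poly(I:C) and 218 and 199 in KO control. In KO untreated their sum was 383 and 290 CPM, in WT control 283 and 337 and in WT untreated 319 and 369. The part of these marker differences in the results below was not tested. All 10 genes of an inflammatory list (Tnf, Il6, Nos2 and others) were higher in KO Poly(I:C) than in either other KO group and in WT control than in WT untreated. In KO control against KO untreated 8 of the 10 were called higher, with a median log2 difference of 1.17, against 7.03 in WT control minus WT untreated and 8.45 in KO Poly(I:C) minus KO untreated.

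The totals bear directly on the direction of the members. They were 47.5 and 51.7 M in KO Poly(I:C) and 42.0 and 41.1 M in WT control, against 25.2 to 26.7 M in the other libraries. The members' summed share of the deposited total was 0.124% and 0.106% in KO Poly(I:C), 0.194% and 0.179% in KO control, 0.193% and 0.174% in KO untreated, 0.138% and 0.131% in WT control and 0.208% and 0.194% in WT untreated. After TMM scaling the members' sum differed far less, from 1465 to 1723 CPM over the 10 libraries. With totals alone, the median of all tested genes was −0.77 for KO Poly(I:C) minus KO untreated, −0.76 for KO Poly(I:C) minus KO control, −0.52 for WT control minus WT untreated and 0.50 for KO control minus WT control, and the calls of most members moved with it. With the deposited scaling the same medians were 0.15, 0.13, 0.15 and −0.14. The differences below are therefore relative to the bulk of genes after TMM scaling, where those medians were −0.02, −0.05, −0.01 and 0.04.

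The members were expressed at middling and unequal levels. Per kb of exon, mean levels over the 10 libraries ran between 0.802 CPM per kb for Mrps35 and 43.0 CPM per kb for Mrps21, a range of 53.7-fold around a median of 7.85. In CPM not divided by length the median member stood at percentile 51.5 of all tested genes. The 5 highest were Mrps21 (43.0 CPM per kb), Mrpl27 (31.3), Mrpl45 (26.0), Mrps18c (24.4) and Mrpl54 (23.5). The 5 lowest were Mrps35 (0.802), Mrpl47 (1.98), Mrps22 (2.03), Mrps25 (2.06) and Mrps30 (2.34). Large-subunit members had a median level of 9.60 CPM per kb, against 6.53 for the small subunit. The proteins are built into one particle, yet their transcripts differed 3.45-fold between the lower and upper quartiles. Exon length was the union over all transcripts, and with the longest transcript in its place 3 of the 5 highest stayed among the 5 highest.

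**Figure D1:**
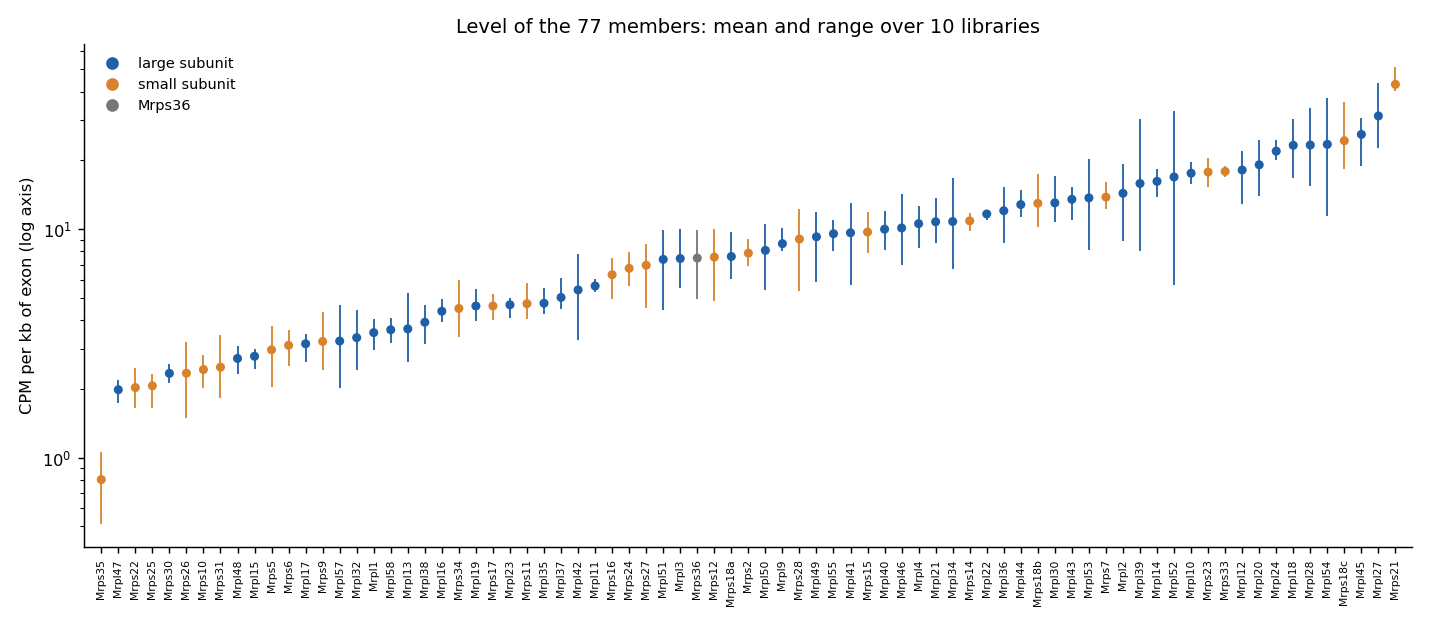
Mean level of each of the 77 members in CPM per kb of exon (points, log axis) with the lowest and highest of the 10 libraries (bars), ordered by mean and coloured by subunit. Mrps35 is lowest at 0.802 CPM per kb and Mrps21 highest at 43.0, and Mrpl39, Mrpl52 and Mrpl54 have some of the longest bars.

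Genotype alone came first, in untreated cells. No member passed the test in KO untreated against WT untreated (limma with Benjamini-Hochberg adjustment at 0.05), where 0.0835% of all tested genes were called higher and 0.0835% lower. At an unadjusted p under 0.05 there were 2 members, Mrpl32 and Mrpl34. The members' log2 differences nevertheless lay mostly below 0: 70 of 77 were negative, with a median of −0.14, against a median of −0.01 and 52.1% negative over all genes. Nuclear-encoded respiratory chain subunits had a median of −0.09, with 85.2% of 81 negative. The libraries of the 2 groups did not overlap for 34 of 77 members, 32 of them lower in KO, while 35.9% of all genes did not overlap. Replicates also differed: 62 of 77 members were higher in replicate 1 than in replicate 2 of KO untreated, and 50 of 77 in WT untreated. Over all genes 46.3% and 49.5% were higher in replicate 1. Leaving out KO untreated replicate 2 brought the members' median to −0.07, and leaving out WT untreated replicate 1 to −0.08.

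Members differed in both directions between WT cells in control medium and untreated WT cells, groups that also differed in the inflammatory list and in the neutrophil and stroma markers given above. In WT control against WT untreated, 12 members rose (15.6%) and 22 fell (28.6%), where 32.8% of all genes were called higher and 33.1% lower. Of the 26 small-subunit members 2 rose and 10 fell, with a median of −0.23, and of the 50 large-subunit members 10 rose and 11 fell, with a median of −0.06. With the deposited scaling 3 small-subunit members rose and 5 fell. The small-subunit proteins specific to mitochondria had 1 that rose and 6 that fell of 10, and with the deposited scaling 1 that rose and 3 that fell. With totals alone the counts over all members were 1 higher and 62 lower, and with the deposited scaling 15 higher and 13 lower. Leaving out WT control replicate 1 left 7 higher, and leaving out WT control replicate 2 left 14 lower. Relative to all genes, the members' median was lower by −0.14 with TMM scaling and between −0.15 and −0.13 with the 3 other scalings. A scaling shifts nearly all genes of a library alike, so this difference could hardly change between scalings and their likeness is no check.

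Mrpl39, a large-subunit protein specific to mitochondria (ENSMUSG00000022889, chr16:84717576-84735742 in the GENCODE M21 annotation of GRCm38), rose the most. Its level was 76.5 and 69.4 CPM in KO Poly(I:C), 21.6 and 20.4 in KO control, 20.3 and 20.5 in KO untreated, 63.7 and 62.5 in WT control and 24.6 and 21.8 in WT untreated. KO Poly(I:C) and WT control libraries were all above 60 CPM and the other 6 libraries all below 25. The log2 difference was 1.44 ± 0.09 in WT control against WT untreated (SE, limma adjusted p = 3.58e-07) and 1.83 ± 0.09 in KO Poly(I:C) against KO untreated (adjusted p = 3.78e-08). It was the one member called higher in both and in KO Poly(I:C) against KO control under all 4 scalings.

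Mrpl52 and Mrpl54, both large-subunit proteins specific to mitochondria, followed it. Mrpl52 (ENSMUSG00000010406, chr14:54426909-54429756) was at 36.5 and 24.9 CPM in KO Poly(I:C), 14.5 and 7.999 in KO control, 13.2 and 6.32 in KO untreated, 24.7 and 31.6 in WT control and 11.9 and 16.03 in WT untreated. Its replicates were far apart, and its log2 difference in WT control against WT untreated was 1.01 ± 0.36 (limma adjusted p = 0.0315). Mrpl54 (ENSMUSG00000034932, chr10:81264713-81266934) was at 30.8 and 24.4 CPM in KO Poly(I:C), 18.1 and 14.8 in KO control, 12.9 and 9.40 in KO untreated, 24.8 and 29.8 in WT control and 15.1 and 13.8 in WT untreated. No KO control or untreated library reached the lowest KO Poly(I:C) or WT control library for either gene. Mrps18c, the small-subunit homologue of bacterial S18, was the other strong riser, with a log2 difference of 0.55 ± 0.09 in WT control against WT untreated (limma adjusted p = 0.000319) and 0.91 ± 0.09 in KO Poly(I:C) against KO untreated (adjusted p = 7.1e-06).

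Among the members that fell, Mrpl28, the homologue of bacterial L28 (ENSMUSG00000024181, chr17:26123500-26126613), fell the most in WT control. It was at 24.6 and 21.6 CPM in KO Poly(I:C), 34.6 and 28.9 in KO control, 44.4 and 34.1 in KO untreated, 22.4 and 21.3 in WT control and 43.4 and 46.8 in WT untreated. Both WT control libraries were below both WT untreated libraries, and the log2 difference was −1.04 ± 0.14 (limma adjusted p = 7.81e-05). Mrpl34, the homologue of bacterial L34 (ENSMUSG00000034880, chr8:71464959-71465747), was at 5.14 and 4.07 CPM in KO Poly(I:C), 8.11 and 5.99 in KO control, 7.84 and 6.00 in KO untreated, 4.35 and 5.01 in WT control and 8.91 and 10.2 in WT untreated. It fell by 1.01 on the log2 scale in WT control against WT untreated (SE 0.20, limma adjusted p = 0.0012). Mrpl42 (−0.90 ± 0.15), Mrps35 (−0.84 ± 0.13), Mrps9 (−0.70 ± 0.11) and Mrps5 (−0.67 ± 0.10) fell as well in that comparison.

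**Figure D2:**
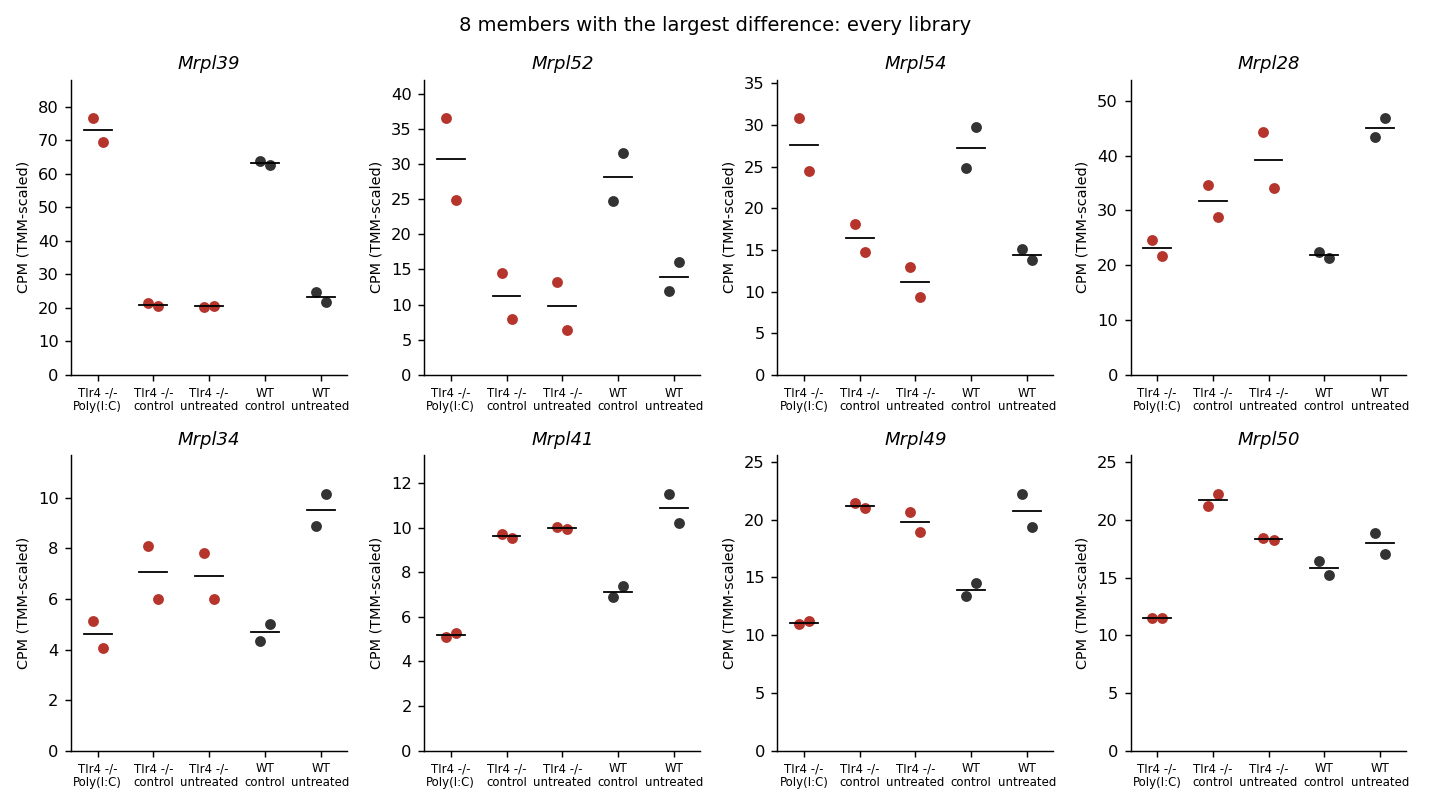
CPM after TMM scaling (y axis) in each of the 10 libraries by group (x axis) for the 8 members with the largest log2 difference in any pairwise comparison; points are libraries (red for Tlr4 -/-, black for WT) and bars group means. Mrpl39 is above 60 CPM in KO Poly(I:C) and WT control and below 25 CPM in the other groups, while Mrpl41 and Mrpl49 are lowest in KO Poly(I:C).

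In KO cells the same medium gave few calls. In KO control against KO untreated, 1 member rose, Mrpl3, and none fell, where 10.9% of all genes were called higher and 9.05% lower. At an unadjusted p under 0.05 there were 8 members. Mrpl3, the homologue of bacterial L3 and a core protein of the large subunit, was at 51.5 and 54.7 CPM in KO control and 37.6 and 38.5 in KO untreated, a log2 difference of 0.48 ± 0.08 (limma adjusted p = 0.00239). Without KO untreated replicate 1, 2 members rose. The interaction, which asks whether control against untreated differed between KO and WT, was called for 17 members. In 15 the difference in KO was higher than in WT (background 22.3%) and in 2, Mrpl39 and Mrps18c, it was lower (background 23.6%). For Mrpl39 the difference in KO was 0.04, against 1.44 in WT, an interaction of −1.40 ± 0.12 (limma adjusted p = 1.47e-05). For Mrpl34 it was 0.02 in KO, against −1.01 in WT, an interaction of 1.04 ± 0.28 (adjusted p = 0.0126). Without KO control replicate 1 the interaction was called higher for 7 members, and without KO untreated replicate 2 for 9. It was called lower for 1 member without KO control replicate 1, KO untreated replicate 1, WT control replicate 1 or WT untreated replicate 2.

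In control medium the genotypes differed at 29 members. In KO control against WT control, 17 members were higher (22.1%) and 12 lower (15.6%), where 31.2% of all genes were called higher and 29.9% lower. The highest in KO were Mrps35 (0.89 ± 0.13), Mrpl42 (0.73 ± 0.15), Mrpl49 (0.60 ± 0.10), Mrps5 (0.57 ± 0.10), Mrpl34 (0.57 ± 0.20) and Mrpl18 (0.56 ± 0.10). The lowest were Mrpl39 (−1.58 ± 0.09), Mrpl52 (−1.36 ± 0.36), Mrpl54 (−0.73 ± 0.18), Mrpl53 (−0.64 ± 0.24), Mrpl32 (−0.50 ± 0.11) and Mrpl27 (−0.50 ± 0.12). Of the small-subunit members 7 were higher and 1, Mrps18c, was lower, against 2 higher and 3 lower with the deposited scaling. Totals alone gave 55 higher and 2 lower, and the deposited scaling 6 higher and 21 lower. Without KO control replicate 1 there were 10 higher, without KO control replicate 2 there were 6 lower and without WT control replicate 2 there were 7 lower. This comparison shares the WT control libraries with WT control against WT untreated.

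**Figure D3:**
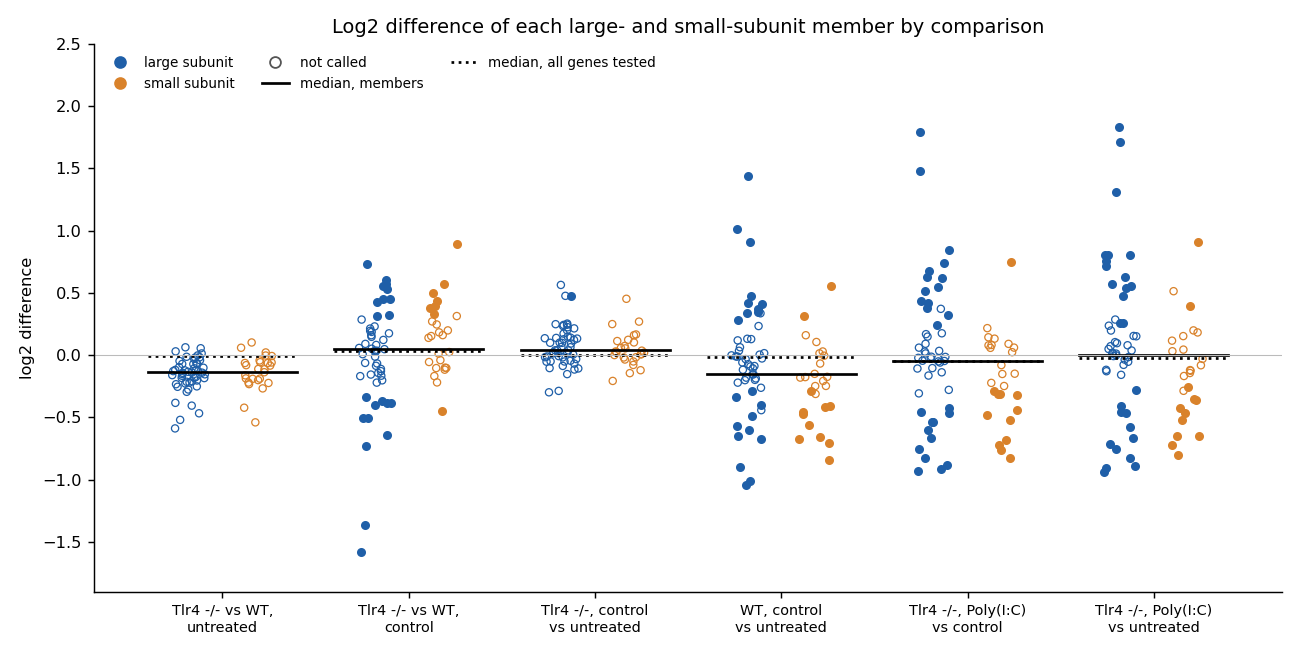
Log2 difference (y axis) of each large-subunit (blue) and small-subunit (orange) member in the 6 pairwise comparisons (x axis, group before vs minus group after it); filled points passed the test, lines are the median of the members (solid) and of all genes tested (dotted). The untreated genotype comparison has no filled point and a members' median of −0.14, and KO control against KO untreated has 1 filled point, Mrpl3.

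Members differed in both directions between KO Poly(I:C) and the other KO groups. In KO Poly(I:C) against KO control, 15 members rose (19.5%) and 24 fell (31.2%), where 33.1% of all genes were called higher and 36.3% lower. In KO Poly(I:C) against KO untreated, 17 rose (22.1%) and 23 fell (29.9%), where 35.0% and 36.9% of all genes did. Small-subunit members had 1 that rose and 11 that fell in the first, and 2 that rose and 10 that fell in the second, counts that were 4 and 5, and 6 and 6, with the deposited scaling. With totals alone the counts were 1 higher and 64 lower in the first and 3 higher and 61 lower in the second, and with the deposited scaling 22 and 14, and 24 and 15. Both comparisons share the KO Poly(I:C) libraries.

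The largest falls in KO Poly(I:C) against KO control were those of Mrpl49, Mrpl50 and Mrpl41, large-subunit proteins specific to mitochondria. Against KO untreated the largest were those of Mrpl41, Mrpl42, Mrpl2, Mrpl49, Mrps35 and Mrpl28. Of these, Mrpl2 and Mrpl28 have a bacterial homologue and Mrps35 belongs to the small subunit. Mrpl49 (ENSMUSG00000007338, chr19:6053622-6057785) was at 10.99 and 11.2 CPM in KO Poly(I:C), 21.4 and 21.0 in KO control, 20.6 and 19.0 in KO untreated, 13.4 and 14.5 in WT control and 22.2 and 19.4 in WT untreated. Mrpl41 (ENSMUSG00000036850, chr2:24974117-24975098) was at 5.08 and 5.28 CPM in KO Poly(I:C), 9.73 and 9.55 in KO control, 10.03 and 9.95 in KO untreated, 6.89 and 7.38 in WT control and 11.5 and 10.2 in WT untreated. Both were lower in every KO Poly(I:C) library than in any other library. The log2 differences of KO Poly(I:C) minus KO control were −0.93 ± 0.10 for Mrpl49 (limma adjusted p = 1.97e-05) and −0.88 ± 0.11 for Mrpl41 (adjusted p = 6.11e-05). Mrpl50 (ENSMUSG00000044018, chr4:49512596-49521093) was at 11.5 CPM in both KO Poly(I:C) libraries, 21.2 and 22.2 in KO control, 18.4 and 18.2 in KO untreated, 16.5 and 15.2 in WT control and 18.9 and 17.1 in WT untreated, a log2 difference of −0.91 ± 0.10 between KO Poly(I:C) and KO control (adjusted p = 1.33e-05). Mrpl50 was not called in WT control against WT untreated (−0.18). Mrps35 (−0.83 ± 0.13), Mrpl2 (−0.82 ± 0.11) and Mrps26 (−0.76 ± 0.17) also fell in KO Poly(I:C) against KO control.

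Among the members that rose with Poly(I:C), Mrpl13 (0.84 ± 0.11 against KO control, limma adjusted p = 9.45e-05) was not called in WT control against WT untreated (0.06 ± 0.11). Mrpl27 (0.67 ± 0.12 against KO control) rose against KO untreated and in WT control against WT untreated as well. Mrpl46 rose by 0.80 ± 0.13 against KO untreated, and Mrpl53 by 0.72 ± 0.24. With totals alone Mrpl53 was below 0 in both Poly(I:C) comparisons, Mrpl27 and Mrpl46 were below 0 against KO control, and Mrpl13 was below 0 against KO untreated. Mrpl53 is overlapped on the same strand by the gene model Gm42688, so the assignment of its reads is uncertain.

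Across WT control against WT untreated and KO Poly(I:C) against KO untreated, which share no library, the same members moved. Of the members called higher, 11 were shared (91.7% of 12 and 64.7% of 17), and of those called lower 20 were shared (90.9% of 22 and 87.0% of 23). None was called in opposite directions. Over the 77 members the log2 differences had a Pearson correlation of 0.93, against 0.94 over all 13171 genes, so the likeness was not particular to the members. The same 11 and 20 were also called in KO Poly(I:C) against KO control. The 11 that rose in all 3 were Mrpl3, Mrpl20, Mrpl21, Mrpl27, Mrpl30, Mrpl32, Mrpl39, Mrpl46, Mrpl52, Mrpl54 and Mrps18c, of which 10 belong to the large subunit. The 20 that fell in all 3 were Mrpl2, Mrpl12, Mrpl18, Mrpl28, Mrpl34, Mrpl41, Mrpl42, Mrpl45, Mrpl49, Mrpl51, Mrps5, Mrps9, Mrps16, Mrps25, Mrps26, Mrps27, Mrps31, Mrps34, Mrps35 and Mrps36, of which 10 belong to the large and 9 to the small subunit. Under all 4 scalings, the direction and call held in all 3 comparisons for Mrpl39 among the risers and for 9 of the 20: Mrpl2, Mrpl18, Mrpl41, Mrpl42, Mrpl49, Mrps5, Mrps26, Mrps34 and Mrps35. A further 34 members, 22 of the large and 12 of the small subunit, were called in no pairwise comparison or in the interaction. The matching shares of all tested genes were not counted, so the 11, 20 and 34 are not shown to be particular to the members.

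**Figure D4:**
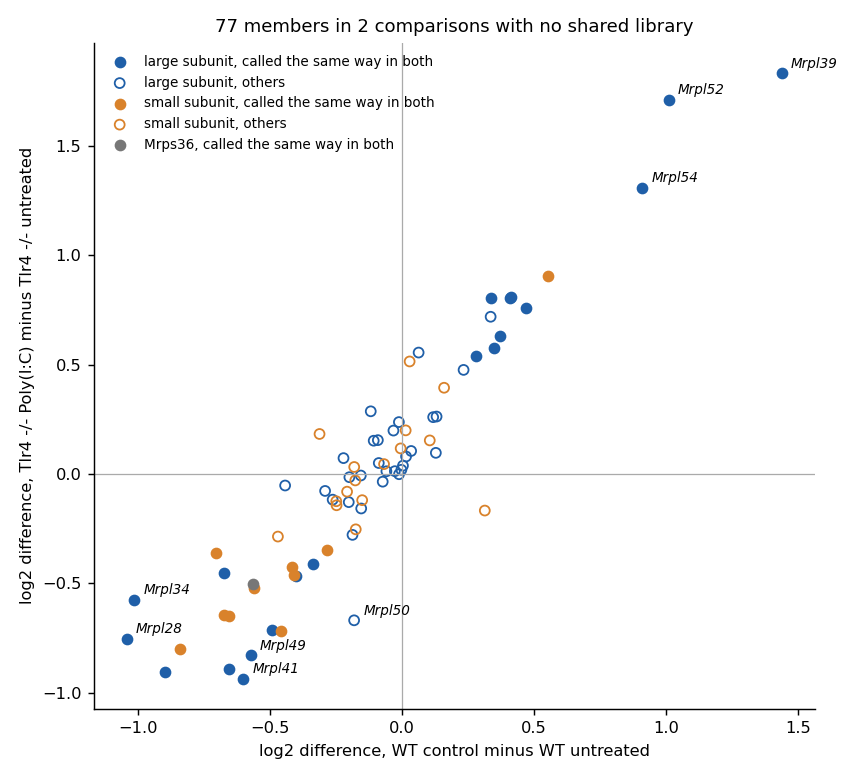
Log2 difference of each of the 77 members in WT control minus WT untreated (x axis) and in KO Poly(I:C) minus KO untreated (y axis), 2 comparisons with no shared library; filled points were called in the same direction in both. Mrpl39, Mrpl52 and Mrpl54 lie far to the upper right, and Mrpl50 was called only on the y axis.

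The 3 paralogs of bacterial S18 behaved differently. Despite this relation, Mrps18a and Mrps18b are counted above among the proteins specific to mitochondria. Mrps18c, in the small subunit, rose in all 3 comparisons named above, but with totals alone its log2 differences were 0.01 to 0.14 and none was called. Mrps18a, which sits in the large subunit despite its name, was at 36.0 and 29.9 CPM in KO Poly(I:C), 26.1 and 22.4 in KO control, 23.4 and 23.7 in KO untreated, 31.2 and 32.9 in WT control and 28.7 and 25.9 in WT untreated. It rose by 0.44 ± 0.11 in KO Poly(I:C) against KO control (limma adjusted p = 0.0061), against −0.29 with totals alone, and its difference in WT control against WT untreated was 0.23 ± 0.11 (adjusted p = 0.094). Mrps18b, another small-subunit protein, was at 22.9 and 21.4 CPM in KO Poly(I:C), 28.9 and 31.2 in KO control, 24.4 and 25.4 in KO untreated, 36.6 and 28.4 in WT control and 27.8 and 24.1 in WT untreated. With TMM scaling it was the one member called in opposite directions, lower in KO Poly(I:C) against KO control (−0.44 ± 0.12, limma adjusted p = 0.01) and higher in WT control against WT untreated (0.31 ± 0.12, adjusted p = 0.047). Mrps18b was not called in KO Poly(I:C) against KO untreated (−0.17, limma adjusted p = 0.25). The opposite calls held with median-of-ratios scaling but not with the 2 others: with totals alone the WT difference was −0.21 (adjusted p = 0.189), and with the deposited scaling the KO difference was −0.25 (adjusted p = 0.147).

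Members with roles beyond the ribosome core were read separately. Mrpl12, part of the stalk that recruits translation factors, fell by 0.47 on the log2 scale in KO Poly(I:C) against KO untreated and by 0.40 in WT control against WT untreated (SE 0.11 each). Mrpl45, which anchors the ribosome to the inner membrane, fell by 0.41 and by 0.34 (SE 0.09 each). Mrps27, a small-subunit RNA-binding protein, fell by 0.72 and by 0.46 (SE 0.13 each), and Mrps36, of the oxoglutarate dehydrogenase complex, by 0.50 and by 0.56 (SE 0.15 each). Mrpl58, a peptidyl-tRNA hydrolase that rescues stalled ribosomes, was at 10.6 to 13.7 CPM and Mrps30, a large-subunit protein, at 14.2 to 17.1 CPM over the 10 libraries, and neither was called in any comparison. The 5 subunits with other symbols had few calls with TMM scaling. With the deposited scaling 3 were higher in WT control against WT untreated and 3 in KO Poly(I:C) against KO control, and with totals alone 4 and all 5 were lower. After TMM scaling Dap3, a GTP-binding small-subunit protein, was at 26.5 to 33.0 CPM over the 10 libraries and was called once (0.24 ± 0.08 in KO Poly(I:C) against KO untreated, limma adjusted p = 0.026). Ptcd3 rose in KO control against KO untreated (0.55 ± 0.13, adjusted p = 0.014) and fell in KO Poly(I:C) against KO control (−0.48 ± 0.13, adjusted p = 0.0068). Chchd1, Aurkaip1 and Gadd45gip1 were called in none with that scaling.

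Many members share their start region with another gene. A protein-coding gene on the opposite strand started within 1000 bp of 33 of 77 members (42.9%), against 2008 of 12026 tested protein-coding genes (16.7%), in the GENCODE M21 annotation. The paired genes did not always move together. Mrpl44 starts 125 bp from Wdfy1, an adaptor in Toll-like receptor signalling: Wdfy1 was lower in KO untreated than in WT untreated by −2.28 on the log2 scale (limma adjusted p = 1.74e-05), whereas Mrpl44 differed by −0.04 ± 0.09 (adjusted p = 0.93). In KO Poly(I:C) against KO untreated both rose, Wdfy1 by 1.83 (limma adjusted p = 2.37e-07) and Mrpl44 from a mean of 19.6 to 23.6 CPM. With totals alone Mrpl44 was at −0.51 there. Mrpl44 and Wdfy1 overlap on opposite strands. Mrpl30 and Mitd1, a protein of the last step of cell division, start 66 bp apart, and in WT control against WT untreated Mitd1 rose by 2.28 (adjusted p = 2.06e-07) and Mrpl30 by 0.28 ± 0.08 (adjusted p = 0.013), although Mrpl30 was at −0.25 with totals alone. Mrpl51 and Ncapd2, a condensin subunit, start 100 bp apart and both fell, by −2.99 for Ncapd2 (adjusted p = 2.29e-06) and −0.49 ± 0.13 for Mrpl51 (adjusted p = 0.0088). Mrps18c rose while Helq, a DNA helicase that starts 29 bp away, fell by 1.10 (adjusted p = 0.000408). Mrpl46 and Mrps11, both members, start 412 bp apart and overlap; in KO Poly(I:C) against KO untreated the differences were 0.80 ± 0.13 for Mrpl46 (adjusted p = 0.00029) and 0.03 ± 0.14 for Mrps11 (adjusted p = 0.85). A gene on the opposite strand overlapped 35 members and one on the same strand 12; whether the counting used strand is not stated, so reads of overlapping genes may be assigned wrongly.

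In the machinery around the mitoribosome, mitochondrial aminoacyl-tRNA synthetases and amidotransferase subunits, which charge the tRNAs that the mitoribosome reads, mostly fell: 16 of 20 fell and 1 rose in KO Poly(I:C) against KO untreated, and 15 fell and none rose in WT control against WT untreated. Under the other scalings 14 to 19 fell in the first and 13 to 17 in the second. Of all tested genes, 36.9% were called lower and 35.0% higher in the first, and 33.1% and 32.8% in the second. Gatc, an amidotransferase subunit, fell by 2.21 ± 0.17 (limma adjusted p = 9.9e-07) and by 1.62 ± 0.17 (adjusted p = 1.4e-05) on the log2 scale. Nars2, which charges tRNA with asparagine, fell by 1.76 ± 0.17 and by 1.32 ± 0.17. Lars2, the leucine enzyme, was the one that rose, at 515 and 192 CPM in KO Poly(I:C), 59.9 and 62.3 in KO control and 54.5 and 56.5 in KO untreated, and its Poly(I:C) libraries differed from each other by more than its other libraries did. In KO control against WT control 17 of the 20 were higher and none lower, where 31.2% of all genes were called higher and 29.9% lower. The median of all genes there was 0.50 with totals alone and −0.14 with the deposited scaling. In the untreated genotype comparison none was called.

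Translation factors fell more often than they rose, and assembly factors did so in the Poly(I:C) comparison. Of 16 translation factors, 12 fell and 1 rose in KO Poly(I:C) against KO untreated, and 8 fell and 2 rose in WT control against WT untreated. The falls were 10 to 15 and 7 to 15 with the other scalings. Oxa1l, which inserts new proteins into the inner membrane, fell by 1.31 ± 0.09 and by 0.94 ± 0.09, and Guf1, an elongation factor, by 1.26 ± 0.15 and by 0.98 ± 0.15. Slirp, which stabilises mitochondrial messenger RNA, rose by 0.92 ± 0.08 and by 0.56 ± 0.08, but no translation factor was called higher with totals alone. Of 24 assembly and ribosomal RNA modification factors, 12 fell and 3 rose in the first comparison and 9 fell and 6 rose in the second. Over all genes 36.9% were called lower and 35.0% higher in the first, and 33.1% and 32.8% in the second. With the other scalings the falls of these factors were 11 to 22 and 8 to 17, and the rises 1 to 5 and 0 to 6. Rbfa, which matures the small subunit, fell by 1.54 ± 0.12 and by 1.61 ± 0.12, whereas Trmt61b, a methyltransferase acting on mitochondrial RNA, rose by 1.76 ± 0.16 and by 0.80 ± 0.16. Of 8 mitochondrial transcription and replication genes, 4 fell and 2 rose in each. With totals alone 8 and 7 fell and none rose, and with the deposited scaling as many rose as fell, 4 in the first and 2 in the second. Polg2, an accessory subunit of the mitochondrial DNA polymerase, fell by 1.98 ± 0.27 and by 1.40 ± 0.27.

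The products and regulators of the system were measured too. The mitochondrial ribosomal RNAs mt-Rnr1 and mt-Rnr2 rose, in libraries selected for polyadenylated RNA, by 1.07 ± 0.16 and 1.33 ± 0.26 in KO Poly(I:C) against KO untreated and by 0.81 ± 0.16 and 0.89 ± 0.26 in WT control against WT untreated, calls that were lost with totals alone. Of 13 mitochondrially encoded messenger RNAs, 4 rose and none fell in each comparison, whereas with totals alone 6 and 4 fell and none rose, and with the deposited scaling 8 and 5 rose. Among 81 nuclear-encoded respiratory chain subunits, 45 rose and 4 fell in KO Poly(I:C) against KO untreated and 11 rose and 9 fell in WT control against WT untreated, but with totals alone 60 and 71 fell and none rose. With the deposited scaling 58 rose and 3 fell in the first, and 29 rose and 4 fell in the second. For 76 cytosolic ribosomal proteins the counts were 30 higher and 2 lower, and 1 higher and 4 lower, with totals alone 71 and 73 were lower and none higher, and with the deposited scaling 65 and 18 were higher and none lower. Of 8 tested regulators of nuclear genes for mitochondria, 6 and 7 rose and none fell, and with totals alone 2 and 1 rose and 3 and 1 fell. Myc, an activator of ribosome production, rose by 1.92 ± 0.15 (limma adjusted p = 1.3e-06) and by 1.17 ± 0.15 (adjusted p = 6.9e-05). Gabpa, an ETS factor, rose by 0.66 ± 0.10 and by 0.60 ± 0.10, Esrra by 0.92 ± 0.22 and by 0.65 ± 0.22, and Nrf1 by 0.24 ± 0.08 and by 0.27 ± 0.08. Yy1 rose in WT control against WT untreated (0.40 ± 0.08, adjusted p = 0.0016) and had a difference of 0.18 ± 0.08 in KO Poly(I:C) against KO untreated (adjusted p = 0.073). Ppargc1b was called in neither of the 2 and rose in KO Poly(I:C) against KO control (1.27 ± 0.34, adjusted p = 0.0073). Of 10 cell cycle genes, 9 fell in both comparisons.

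**Figure D5:**
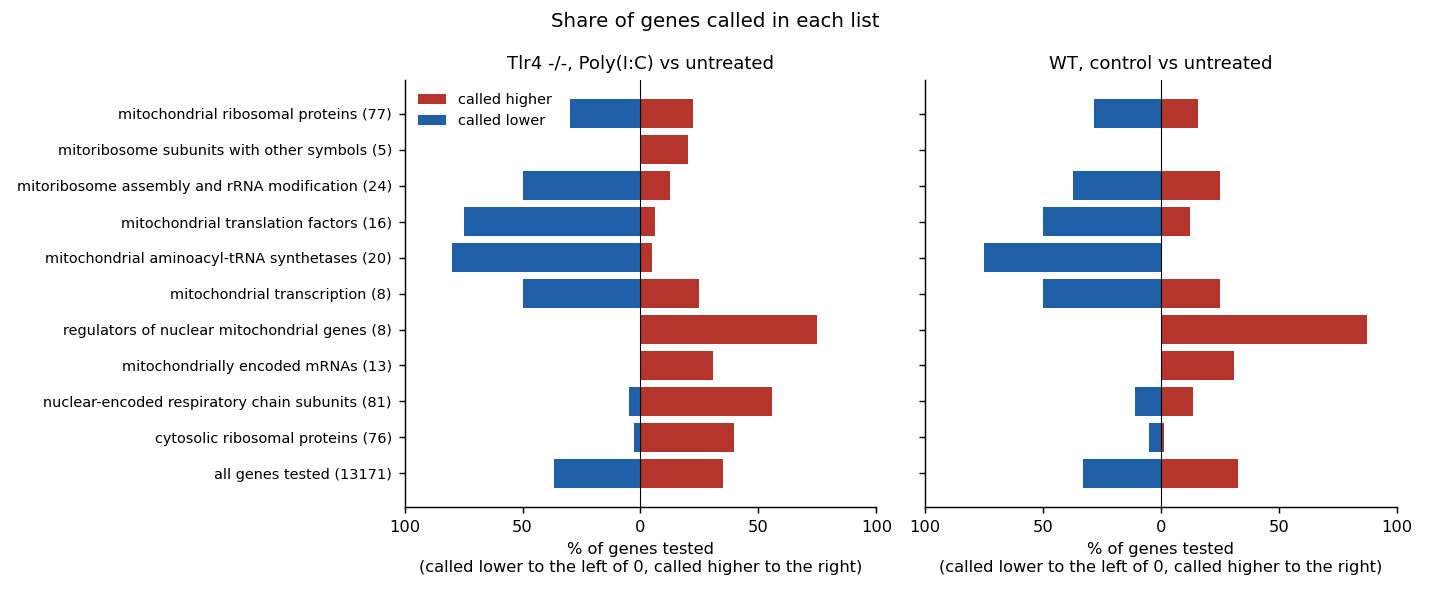
Share of the genes tested in each list (number in brackets) that were called higher (right of 0, red) or lower (left of 0, blue) in KO Poly(I:C) against KO untreated (left panel) and WT control against WT untreated (right panel), after TMM scaling. The aminoacyl-tRNA synthetases stand out to the left, with 16 and 15 of 20 called lower, while of the 77 mitochondrial ribosomal proteins 23 and 22 were called lower and 17 and 12 higher.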

How the data were processed

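RNA of 10 mouse BMDM libraries was extracted with an RNeasy kit and made into TruSeq Stranded mRNA libraries, per the labels' protocols. Software versions listed by the submitters' processing notes, with no role, are RSEM 1.2.12, STAR 2.4.0d and Trim Galore 0.2.8, and DESeq2 is listed too. The build behind the values was not given in those sources. A table of whole numbers was deposited by the authors and is treated here as a scaled signal and not as counts because percentile 75 over all rows is 25 in every library, and a second deposited table holds rlog values (log2). Of 45318 identifiers, 44585 matched a symbol in GENCODE M21, and coordinates are that annotation's (GRCm38) or RefSeq's (GRCm38.p6) and may not be the authors'. Mrpl33 had no matched row and was not analysed here.

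The signal was scaled by TMM (30% of log ratios and 5% of abundances trimmed) to CPM. Genes with a deposited value of 10 or more in 2 libraries (13171) were tested as log2(CPM + 0.1), which understates the change of low genes, with limma 3.58.1 (R 4.3.3, intensity trend, 5 groups in 1 fit, two-sided, 5 residual and 4.813 prior degrees of freedom). All p-values were adjusted by Benjamini-Hochberg over those genes, within each of 7 comparisons, and called at 0.05. The steps were tested on simulated data. Groups came from sample titles. Depth per library is unknown, so no counting interval is given.

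The members and lists were chosen with earlier results of these data known, and so were the tests. Named genes are, per comparison, the 6 called members with the largest difference in each direction, the 8 with the largest difference anywhere, the 5 highest and lowest per kb, members with a special place, up to 3 called genes per direction of each list, chosen regulators and neighbours of named members. Alternatives were 3 other scalings, no filter, a pseudocount of 1, a threshold of 0.01, only the groups compared, the rlog table, a replicate block and leaving out each library. Figures were drawn with Python 3.11.15 and matplotlib 3.10.9.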

Additional observations from a re-analysis of the deposited data

Results flagged for a closer look

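A test of the interaction found that the difference between control and untreated cells was not the same in KO and WT cells for 17 members (limma, adjusted p under 0.05), and these are given as the KO difference minus the WT difference on the log2 scale. The interaction was called higher for 19.5% and lower for 2.6% of the members, against 22.3% and 23.6% of all tested genes. Mrpl39 had −1.40 and Mrps18c −0.39, both called higher in WT control against WT untreated and not called in KO control against KO untreated. Mrpl34 had 1.04 and Mrps35 0.87. The others that were higher were Mrps26 (0.77), Mrpl42 (0.74), Mrpl28 (0.74), Mrps5 (0.71), Mrpl18 (0.69), Mrpl49 (0.67), Mrps9 (0.62), Mrpl2 (0.59), Mrps34 (0.56), Mrpl41 (0.55), Mrpl12 (0.47), Mrpl45 (0.46) and Mrpl50 (0.42). Of these 15, 14 had fallen in WT control against WT untreated, Mrpl50 being the exception, and none was called in KO control against KO untreated. The interaction keeps its call under all 4 scalings for Mrpl18, Mrpl28, Mrpl34, Mrpl49, Mrps35, Mrps5 and Mrpl39.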

How the results depend on the processing

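Totals alone and the deposited scaling moved many counts of called members. With totals alone there were 55 members higher and 2 lower in KO control against WT control, 1 and 62 in WT control against WT untreated, 1 and 64 in KO Poly(I:C) against KO control, 3 and 61 in KO Poly(I:C) against KO untreated and 58 and 1 in the interaction. With the deposited scaling there were 6 higher and 21 lower in KO control against WT control, 13 lower in WT control against WT untreated, 14 lower in KO Poly(I:C) against KO control, 15 lower in KO Poly(I:C) against KO untreated, 2 higher in KO control against KO untreated and 6 higher and 5 lower in the interaction. Median-of-ratios scaling gave 2 higher in KO control against KO untreated. A threshold of 0.01 left 7 lower in KO control against WT control, 7 higher in WT control against WT untreated and 5 higher and 1 lower in the interaction. No paired origin is stated. Deviations of same-numbered libraries had correlations of 0.01 to 0.32 over all genes and −0.64 to 0.82 over the 77 members in 10 pairs of groups. For the members they were 0.50 to 0.82 among the KO groups, 0.48 between the WT groups and below 0 for each KO group with a WT group. The replicate block moved 1 count by over 1.5 times, to 2 higher in KO control against KO untreated. It used 1 replicate term for KO and WT alike, so it cannot take up deviations that ran opposite ways in the genotypes. The counts with it therefore do not show whether a pairing matters.

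Leaving out each library in turn gave no member higher or lower in KO untreated against WT untreated, 10 to 18 higher and 6 to 12 lower in KO control against WT control, 7 to 11 higher and 14 to 22 lower in WT control against WT untreated, 1 to 2 higher and none lower in KO control against KO untreated, 11 to 16 higher and 18 to 25 lower in KO Poly(I:C) against KO control, 13 to 20 higher and 18 to 24 lower in KO Poly(I:C) against KO untreated, and 7 to 16 higher and 1 to 3 lower in the interaction. Where this leaves a group with 1 library, it is assumed to vary like the other groups.

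The 160 member calls were each recomputed under 8 alternatives, and with totals alone 35 of them reversed in direction. These were Mrpl13 (0.0977), Mrpl20 (0.14), Mrpl30 (0.096), Mrpl46 (0.11), Mrps18a (0.0745) and Mrps18c (0.0292) in KO control against WT control, Mrps18c (0.0933) in the interaction, Mrpl20 (−0.15), Mrpl21 (−0.18), Mrpl27 (−0.11), Mrpl3 (−0.12), Mrpl30 (−0.25), Mrpl32 (−0.052), Mrpl46 (−0.18) and Mrps18b (−0.21) in WT control against WT untreated, Mrpl20 (−0.31), Mrpl21 (−0.35), Mrpl27 (−0.0556), Mrpl3 (−0.41), Mrpl30 (−0.19), Mrpl32 (−0.22), Mrpl44 (−0.48), Mrpl46 (−0.0972), Mrpl53 (−0.11) and Mrps18a (−0.29) in KO Poly(I:C) against KO control, and Mrpl13 (−0.21), Mrpl20 (−0.14), Mrpl21 (−0.19), Mrpl30 (−0.23), Mrpl32 (−0.01), Mrpl44 (−0.51), Mrpl48 (−0.51), Mrpl53 (−0.0454), Mrps18a (−0.29) and Mrps22 (−0.37) in KO Poly(I:C) against KO untreated. Of the 35, 8 were then called lower, namely Mrpl30 in WT control against WT untreated, Mrpl3, Mrpl20, Mrpl21 and Mrpl44 in KO Poly(I:C) against KO control, and Mrpl30, Mrpl44 and Mrpl48 in KO Poly(I:C) against KO untreated. With totals alone 15 more calls were lost without a reversal. No call reversed under the 7 other alternatives, but some were lost. Of the 160, 47 were lost with the deposited scaling, 20 with no filter and 9 with the rlog table. With only the groups compared 8 were lost, and with median-of-ratios scaling 7. None was lost with a pseudocount of 1 or the replicate block. With totals alone the median of all genes lay on the same side of 0 as the 35 reversed values. It was 0.50 in KO control against WT control and 0.52 in the interaction. In WT control against WT untreated it was −0.52, and in KO Poly(I:C) against KO control and against KO untreated −0.76 and −0.77. With 2 libraries per group and unknown depth, a member that was not called is not shown to be equal between groups.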
